A study of Mus musculus with 2 samples.

Results

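The egress axis of T cells was followed here through 5 genes, Cd69, Klf2, Klf3, S1pr1 and S1pr4, taken by symbol from the 32285 genes of both deposited matrices. All 5 were found in each matrix. CD8 T cells had been sorted alive, as cells positive for CD45, TCRB and CD8a, from the 4th mammary fat pad of untreated C57BL/6 mice, and single cells were sequenced from the 5′ end of their RNA. The parous library came from mice that had been through several pregnancies and the virgin library from mice that had not. Each group was 1 library, pooled from at least 5 mice, with ages and the time since pregnancy not given in the sources used here. No difference between the groups therefore has a replicate check, no test was made, and parity cannot be told apart from the pool, the dissociation and the library.

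Sphingosine 1-phosphate (S1P) is a lipid that is abundant in blood and lymph and scarce inside tissues, and T cells leave a tissue by sensing this gradient. S1pr1 encodes the receptor that drives exit. Klf2 encodes a zinc finger transcription factor that switches on S1pr1 in naive and circulating T cells. Klf3 encodes a related factor that mostly represses transcription and is itself a target of KLF factors. Cd69 encodes a surface lectin, induced early after activation, that binds the S1PR1 protein and takes it off the cell surface. S1pr4 encodes a second S1P receptor of lymphocytes, which is not the one known for exit. Memory T cells resident in a tissue are classically described as CD69+ with low Klf2 and S1pr1. The CD69 protein acts on the S1PR1 protein, so RNA counts show neither the binding nor the surface level of either.

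The parous matrix held 4927 barcodes and 14676415 unique molecular identifiers (UMIs, which count single captured RNA molecules), and the virgin matrix 2526 barcodes and 20166425 UMIs. After filtering and removal of a cluster of other cells, 2989 parous and 2499 virgin CD8 T cells were analysed, with medians of 4109 and 6998 UMIs per cell. A Cd3e UMI was present in 95.3% of parous cells and 98.6% of virgin cells, Cd8a in 76.8% and 87.1%, and Cd8b1 in 80.1% and 95.4%. Cd4 was found in 0.368% and 0.080%. The summed level of 7 gamma-delta T cell markers was 117 and 58.2 CPM (UMIs of the genes per 1000000 UMIs of the same cells) in parous and virgin cells, and that of 8 B cell markers 88.6 and 120.2 CPM, with 6 of the 8 at 0 in the parous cells. The part of such cells in the results below was not tested. The libraries shared 18 barcodes, 14 of them among the cells kept. Scaled by totals, the median gene with at least 10 UMIs in each library lay at a log2 parous over virgin ratio of -0.13, so ratios near this value are near the middle of all genes.

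T cell states were clusters made without the 5 genes, without the other S1P receptor and KLF genes, and without the genes of S1P synthesis, export and breakdown. Cluster 0 was naive or central memory-like (485 parous and 984 virgin cells), cluster 1 virtual or central memory-like (530 and 496) and cluster 7 circulating effector-like (73 and 168). Of the 2 tissue-resident memory-like clusters, cluster 2 was led by Adgrg1, Car2 and Cdh1 and came mostly from the parous library (653 and 38 cells), while cluster 6, led by Mmp9, Ccr4 and Ccr8, was shared (149 and 114). Cluster 4 was Gzmk or exhausted-like (187 and 241), cluster 8 cycling-like (69 and 155) and cluster 10 interferon-responding-like (38 and 61). The others stayed unnamed. Cluster 3 was led by Rbpms, Klra6 and Ikzf2 among others (325 and 189 cells), and cluster 9 had few UMIs (157 and 47). Cluster 5 (315 parous and 3 virgin cells) was led by Gzmc, Klrb1a and Fcer1g and carried 13 of the 15 residency markers, none of them among its 10 leading genes. A Cd8b1 UMI was found in 22.3% of its cells and a Cd8a UMI in 83.3%.

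Promoter windows show the letters through which KLF and MEF2 factors are known to act. Those of Klf2 and Klf3 are given because both genes were high in cluster 0 of each library and low in the parous cells of cluster 5. Sequences came from RefSeq on GRCm38.p6, where 3 of the 5 genes had an entry (Klf2, Klf3 and S1pr4). Each window ends at the base before the first annotated start, reads 5′ to 3′ on the plus strand, that of both genes, and has motif matches in capitals.
Klf2, chr8:72318812-72319032: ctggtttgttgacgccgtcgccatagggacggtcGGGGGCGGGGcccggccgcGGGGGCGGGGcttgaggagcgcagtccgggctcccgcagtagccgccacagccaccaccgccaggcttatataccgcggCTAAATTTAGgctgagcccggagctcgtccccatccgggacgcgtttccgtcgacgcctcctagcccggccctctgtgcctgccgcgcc
Klf3, chr5:64803271-64803387: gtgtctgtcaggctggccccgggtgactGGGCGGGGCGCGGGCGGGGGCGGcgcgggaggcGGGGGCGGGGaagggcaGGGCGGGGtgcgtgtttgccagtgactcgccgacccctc
The capitals are of 2 kinds, searched on both strands. CCNCNCCC, a KLF box, matched 4 times in the Klf2 window, in 2 overlapping pairs, and 7 times in the shorter Klf3 window, also with overlaps. The shares of 32851 promoters with a match in a window of the same length were 41.2% and 20.4%. A MEF2 box matched 1 time in the Klf2 window, and 0.423% of promoters (139 of 32851) had a match in a window of that length. GTAAACA, a FOXO box, was not in these letters of either window. The motifs were picked with the Klf2 sequence known, and a match is a description, not a bound site.

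Cd69 and Klf2 RNA were both lower in the parous cells, Klf3 and S1pr1 less far apart, and S1pr4 nearly level. Cd69 (ENSMUSG00000030156, chromosome 6, 129267325 to 129275436, minus strand, GRCm38) stood at 341 CPM in the parous library (4521 UMIs, 95% interval 331 to 351) and 617 CPM in the virgin library (12282 UMIs, 606 to 628). This was 1.81-fold lower in the parous library, a log2 ratio of -0.86 (-0.91 to -0.81). Klf2 (ENSMUSG00000055148, chromosome 8, 72319033 to 72321656, plus strand) stood at 825 CPM (810 to 841) and 1708 CPM (1690 to 1726), 2.07-fold lower, with a log2 ratio of -1.05 (-1.08 to -1.02). These intervals are exact Poisson intervals of the counts or exact intervals of the ratio, cover counting error only, and say nothing of mice or preparations.

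S1pr1, the exit receptor (ENSMUSG00000045092, chromosome 3, 115710433 to 115715072, minus strand), stood at 117 CPM (1557 UMIs) against 159 CPM in virgin cells (3172 UMIs), a log2 ratio of -0.44 (-0.53 to -0.35). Klf3 (ENSMUSG00000029178, chromosome 5, 64803388 to 64832901, plus strand) stood at 127 and 170.2 CPM, with a log2 ratio of -0.43 (-0.51 to -0.34). S1pr4 (ENSMUSG00000044199, chromosome 10, 81497747 to 81500132, minus strand) stood at 111 and 103 CPM, with a log2 ratio of 0.10 (0.01 to 0.20). A 1.5-fold or larger deficit in parous cells was thus seen for 2 of the 5 genes, Cd69 and Klf2, and no gene was 1.5-fold higher. Over all 13056 genes with at least 10 UMIs in either library, 16.7% lay as far below and 7.07% as far above. Among the 6539 genes with at least 500 UMIs in both libraries together, as all 5 have, the shares were 5.52% and 3.41%. No small set of cells made up these levels, since the 5 cells with most UMIs of a gene held between 1.1% and 2.5% of its UMIs in each library.

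The depth of the cells differed, so detection was compared with each cell thinned at random to 1400 UMIs, which left 2865 parous and 2485 virgin cells. Cd69 was then found in 33.3% of parous cells (31.6 to 35.1%, exact Clopper-Pearson) and 50.3% of virgin cells (48.3 to 52.3%). Klf2 was found in 51.8% (49.98 to 53.7%) and 73.6% (71.9 to 75.4%). For S1pr1 the shares were 12.5% (11.3 to 13.8%) and 17.6% (16.1 to 19.2%), and for Klf3 15.2% (13.9 to 16.6%) and 21.6% (20.01 to 23.3%). For S1pr4 they were 13.6% (12.3 to 14.9%) and 12.03% (10.8 to 13.4%), intervals that overlap. Without thinning the shares were 58.2% and 83.6% for Cd69, 70.4% and 89.7% for Klf2, 34.7% and 55.2% for Klf3, 28.4% and 50.6% for S1pr1, and 31.7% and 43.1% for S1pr4. Cells that did carry the RNA also held less of it: thinned cells with a Klf2 UMI had 2.34 on average among parous and 3.61 among virgin cells, and those with a Cd69 UMI 1.54 and 1.89.

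**Figure D1:**
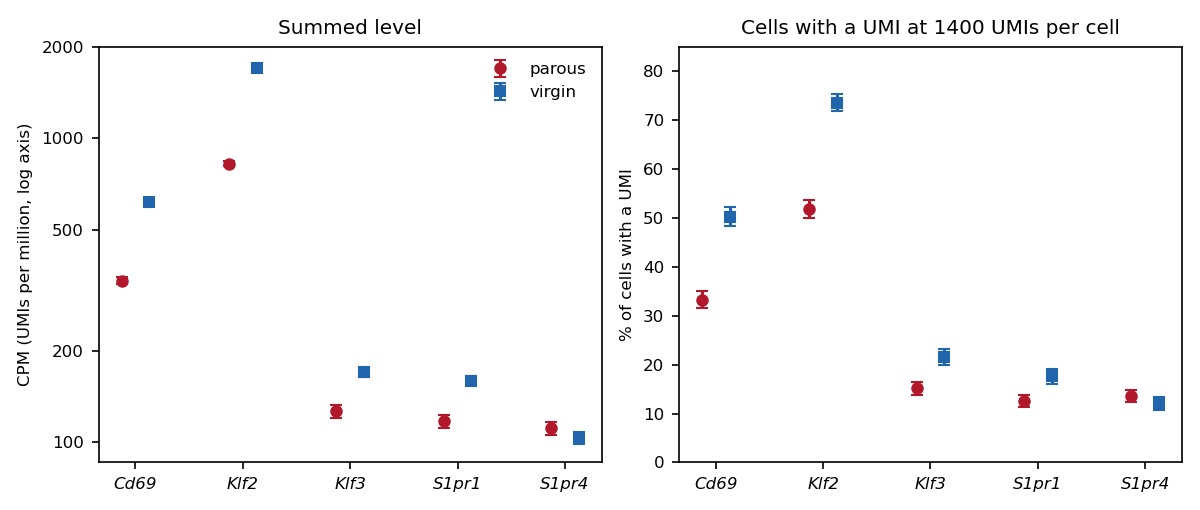
Level in CPM on a log axis (left) and percent of cells with a UMI after thinning each cell to 1400 UMIs (right) for the 5 genes, with parous cells as circles and virgin cells as squares. Bars are exact 95% intervals of counting error; Cd69 and Klf2 lie furthest apart (341 against 617 CPM and 825 against 1708 CPM), and the S1pr4 shares overlap.

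Free RNA in the droplets gives UMIs in cells that do not express a gene. No set of cells free of T cell RNA was at hand: in the cluster of other cells, Cd8b1 was found in 60.0% of 30 parous cells, and after thinning Cd69 was found in 27.6%, Klf2 in 41.4% and S1pr1 in 3.45% of 29. These are myeloid, epithelial and endothelial-marked cells, and myeloid and endothelial cells can express Klf2 and S1pr1 themselves. Within the parous library the lowest share of S1pr1 in any state was 0.971% (3 of 309 cells of cluster 5, interval 0.201 to 2.81%), at the same 1400 UMIs. The lowest for Klf2 was 18.8% (58 of 309), in the same cluster.

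Across states, S1pr1 and Klf2 were high in the naive and circulating states, though not only there, and Cd69 was not uniformly high in the resident-like states. S1pr1 was highest in the naive or central memory-like cells of both libraries, at 259.6 CPM in parous and 275 CPM in virgin cells. It was found there in 30.4% and 27.6% of thinned cells. In the resident-like cluster 6 it stood at 33.1 CPM (17 UMIs) and 15.5 CPM (11 UMIs), found in 4.73% and 4.39% of cells, and in the parous cells of cluster 5 at 14.4 CPM. The resident-like cluster 2 held more, 81.9 CPM in parous cells and 127 CPM in 38 virgin cells, and its virgin share rests on 1 cell. Its parous cells were not uniform in S1pr1 or Klf2, as the finer clusters given below show. The circulating effector-like cluster 7 stood at 173 and 155 CPM. The unnamed cluster 3, at 154 and 158 CPM, was not apart from it within counting error in either library. In order of S1pr1 level, cluster 0 was apart from the next state in both libraries, and most other neighbours overlapped within counting error.

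Among naive or central memory-like cells, 83.2% of parous and 90.7% of virgin ones had a Klf2 UMI, and among circulating effector-like cells 80.3% and 83.8%. In level, cluster 7 came first in the parous library (1797 CPM) and cluster 0 in the virgin library (2669 CPM). Cluster 3 stood at 861 CPM in parous and 1704 CPM in virgin cells, with Klf2 found in 61.5% and 82.5% of its cells. The lowest Klf2 levels were those of cluster 5 in the parous library (247 CPM) and of the cycling-like cells in the virgin library (368 CPM). The resident-like clusters 2 and 6 stood at 454 and 614 CPM in parous and 803 and 706 CPM in virgin cells. Klf3 was highest in cluster 0 (207 and 245 CPM) and low in the cycling-like cells (36.8 and 46.1 CPM) and in cluster 5 (29.5 CPM in parous cells). Its order parted from that of Klf2 in the parous library. There the cycling-like cells stood at rank 6 for Klf2 (708 CPM) and rank 10 for Klf3. Cluster 6 stood at rank 9 for Klf2 and rank 3 for Klf3 (142 CPM), although most neighbours in the Klf3 order overlapped within counting error.

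Cd69 had a different order. Its highest parous level was in the interferon-responding-like cells (696 CPM, 117 UMIs from 38 cells) and its highest virgin level in the resident-like cluster 6 (836 CPM). Its lowest level in both libraries was in the circulating effector-like cells (190.4 and 253 CPM), found there in 21.1% and 20.4% of cells. The naive or central memory-like cells carried 347 CPM (parous) and 680.2 CPM (virgin). Against these, cluster 2 was lower, at 257 and 427 CPM, and the parous cells of cluster 5, at 315 CPM, overlapped the parous naive-like cells within counting error. Cluster 2 was not uniform: with finer clusters 339 of its 653 parous cells fell in a Gzmk or exhausted-like cluster (252 CPM of Cd69 over its 346 parous cells). A further 190 fell in an unnamed cluster of 507 parous cells, most of them from outside cluster 2, with 211 CPM over all 507. Another 115 fell in a smaller resident-like cluster, which carried 382 CPM in parous cells and 924 CPM in 9 virgin cells (53 UMIs). In the same order, S1pr1 stood at 28.4, 136 and 15.8 CPM (the last on 9 UMIs) in the parous cells of these finer clusters. Klf2 stood there at 223, 754 and 305 CPM. The higher S1pr1 and Klf2 levels were thus those of the unnamed finer cluster. S1pr4 was highest in the circulating effector-like cells (257 and 293 CPM), apart from the next state in both libraries, and low in the naive or central memory-like cells (97.4 and 72.9 CPM).

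**Figure D2:**
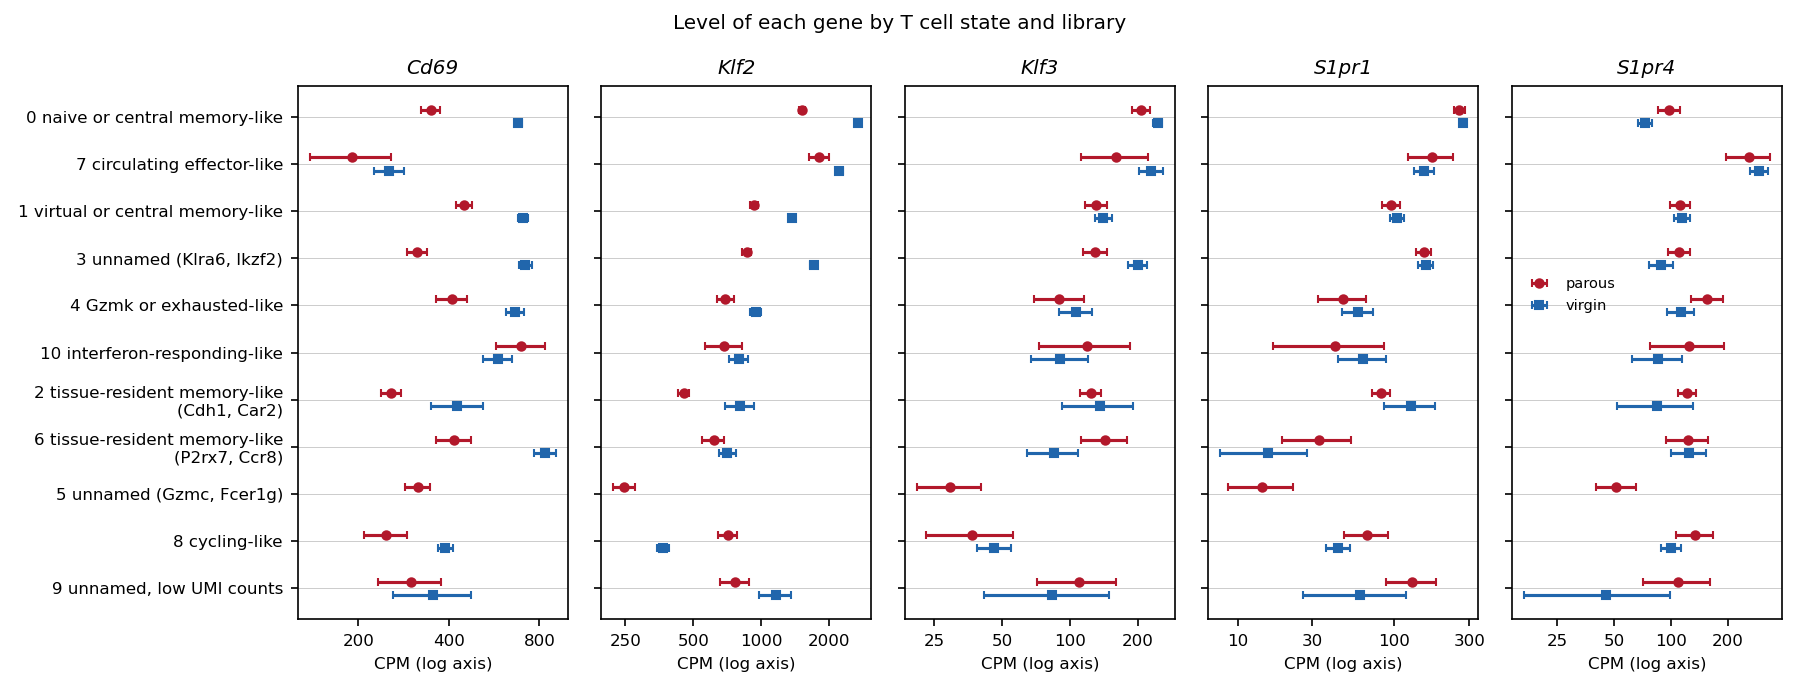
Level of each gene in CPM (log axis, its range differing by gene) in each cluster with at least 30 cells of a library, parous as circles and virgin as squares. Bars are exact 95% Poisson intervals; S1pr1 and Klf2 are high in clusters 0 and 7 and low in cluster 5, whereas Cd69 is lowest in cluster 7.

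The 10 clusters with at least 30 cells of each library allow the libraries to be compared within a state. Cd69 was lower in the parous cells of 9 of the 10, in 7 of them with an interval below 0, and its log2 ratio ran from -1.19 in cluster 3 to 0.26 in the interferon-responding-like cells. Klf2 was lower in the parous cells of 9 of the 10, with 7 intervals below 0, from -0.98 in cluster 3 to 0.94 in the cycling-like cells. With ratios centred on the median gene, Cd69 and Klf2 were again lower in 9 of 10 states each. In the naive or central memory-like cells, the largest state of the virgin library, Cd69 stood at 347 and 680.2 CPM, a log2 ratio of -0.97 (-1.08 to -0.86). Klf2 stood there at 1513 and 2669 CPM, a log2 ratio of -0.82 (-0.87 to -0.77). Both were more than 1.5-fold lower there, as were 19% of the genes measured in that state.

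S1pr1 did not share this. It was lower in the parous cells of 6 states and higher in 4, with 1 interval below 0 (cluster 2, -0.65) and 1 above (the cycling-like cells, 0.63), and centred on the median gene it was lower in 3 of 10. In the naive or central memory-like cells its log2 ratio was -0.08 (-0.22 to 0.05). Klf3 was lower in 7 states (5 when centred on the median gene), with 3 intervals below 0 and 1 above. S1pr4 was higher in the parous cells of 7 states, with 4 intervals above 0, among them the naive or central memory-like cells at 0.42 (0.19 to 0.65), and none below.

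State makeup was then made equal by averaging each library's state levels with the same weights. At equal makeup, Cd69 stood at 354 CPM in parous against 615 CPM in virgin cells, a log2 ratio of -0.80 beside -0.84 for the same cells at their own makeup. Klf2 stood at 1013 and 1609 CPM, and its ratio went from -0.94 to -0.67. S1pr1 stood at 142 and 151 CPM, and its ratio went from -0.32 to -0.08, close to the median of all genes at equal makeup (-0.17). For Klf3 the ratio went from -0.32 to -0.20, and for S1pr4 from 0.19 to 0.26. Cd69 and Klf2 were again the 2 genes past 1.5-fold lower and none was past 1.5-fold higher, to be read against 16.6% and 5.2% of all genes, or 4.99% and 1.47% of those with at least 500 UMIs. The choice of clusters bears on this: at a finer resolution the naive-like cells divided into a cluster of 67 parous and 792 virgin cells and another of 417 and 187, and the ratio of S1pr1 was then 0.02, of Cd69 -0.57 and of Klf2 -0.56, so neither Cd69 nor Klf2 was past 1.5-fold.

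**Figure D3:**
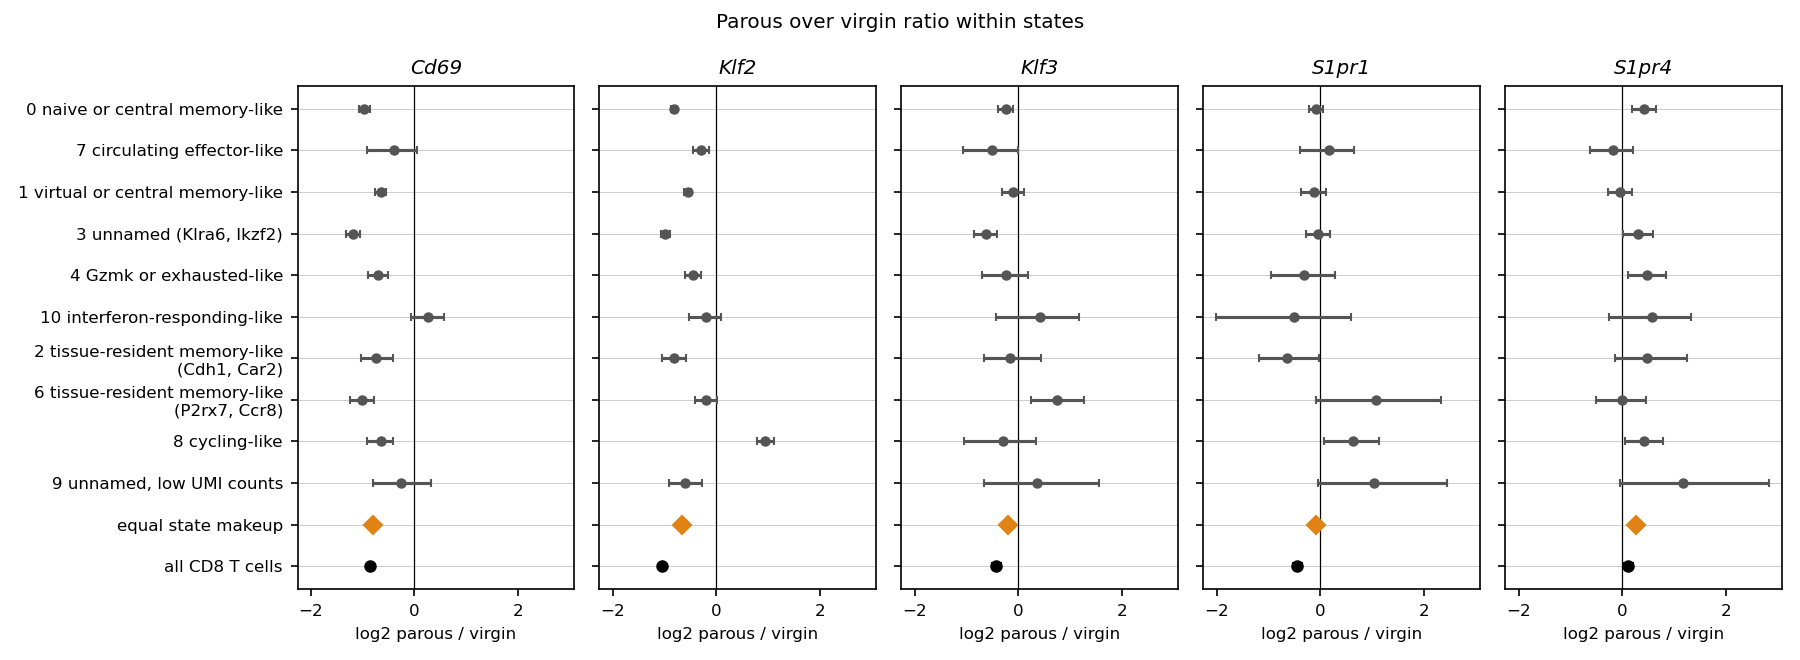
Log2 parous over virgin ratio of each gene in the 10 clusters with at least 30 cells of each library (circles, bars are exact 95% intervals of counting error), at equal state makeup (diamonds, no interval) and over all CD8 T cells (bottom). Cd69 lies left of 0 in 9 of 10 clusters, Klf2 in 9 with the cycling-like cells at 0.94, and S1pr1 at equal makeup lies at -0.08.

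Co-detection asks whether the RNAs of this axis were found in the same cells. For each of the 10 pairs of genes, the number of thinned cells with both was set against the number expected if the 2 shares were independent in that library, giving 20 ratios as a description. Their intervals are exact intervals of the number of cells with both, divided by an expected number held fixed. They are therefore wide for common genes, and an interval that holds 1 does not show that 2 genes were independent. Klf2 and S1pr1 were found together in 1.42 times the expected number of parous cells (264 cells, 1.26 to 1.59) and 1.18 times that of virgin cells (379 cells, 1.07 to 1.29). S1pr1 was found in 17.8% of parous cells with a Klf2 UMI and 6.88% of those without, and in 20.7% and 9.01% of virgin cells. When the expected number was summed within states, the ratios were 1.13 (1.004 to 1.27) and 1.05 (0.95 to 1.15), so most of the excess lay between states and not within them. S1pr1 was more frequent in cells with Klf2 in 5 of 8 parous states compared and less frequent in 3, and in 7 and 1 of 8 virgin states. In the parous cells of cluster 2, which was not uniform, the shares were 17.2% with Klf2 (36 of 209 cells) and 3.18% without.

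The share with S1pr1 was also higher in cells with more Klf2 UMIs. In the parous library it was 6.88% at no Klf2 UMI, 14.8% at 1, 20.1% at 2, 14.9% at 3 and 23.5% at 4 or more. In the virgin library it was 9.01%, 16.4%, 19.8%, 18.1% and 24.6%. At a given number of Klf2 UMIs the intervals of the 2 libraries overlapped, although the parous library had more cells at 0 (1380 of 2865 against 655 of 2485). Klf3 went with Klf2 as well (1.24 in parous and 1.12 in virgin cells) and with S1pr1 (1.36 and 1.23), and within states these ratios were between 1.04 and 1.09.

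Cd69 and S1pr1, which act against each other as proteins, gave ratios near 1 as RNAs, with intervals that held 1. They were found together in 107 parous cells where 120 were expected (0.89, 0.74 to 1.08) and in 205 virgin cells where 220.3 were expected (0.93, 0.81 to 1.06). The share with S1pr1 was 13.2% in parous cells with no Cd69 UMI and 11.2% in those with 1 or more, and 18.9% and 16.4% in virgin cells. By number of Cd69 UMIs the share was lower at 2 or more in parous cells and at 4 or more in virgin cells, on few cells and with intervals that mostly overlap. It was, in parous cells, 13.03% at 1 Cd69 UMI, 8.21% at 2 (17 of 207 cells), 3.28% at 3 (2 of 61, 0.40 to 11.3%) and 10.0% at 4 or more (5 of 50), and in virgin cells 17.1%, 16.7%, 17.7% and 10.2% (13 of 127, 5.56 to 16.9%). Cd69 and Klf2, opposed in the classical description of a resident cell, were together in no fewer cells than expected. Klf2 was found in 57.7% of parous cells with Cd69 and 48.9% of those without, and in 76.0% and 71.3% of virgin cells. Their ratio of observed to expected was 1.11 (1.0304 to 1.199) and 1.032 (0.98 to 1.08).

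The 2 receptors were together in more parous cells than expected, but not in more virgin cells. S1pr1 and S1pr4 were found in the same cell in 73 parous cells where 48.7 were expected (1.498, 1.18 to 1.88), and the ratio within states was 1.48 (1.16 to 1.85). In the virgin library 52 cells had both where 52.7 were expected (0.99, 0.74 to 1.29). The intervals overlap, the difference between the libraries was not tested, and this pair was singled out after its values were seen. Cd69 and S1pr4 were found together in fewer virgin cells than the product of their shares gives (0.80, 0.66 to 0.95), and within states the ratio was 0.88 (0.74 to 1.05).

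**Figure D4:**
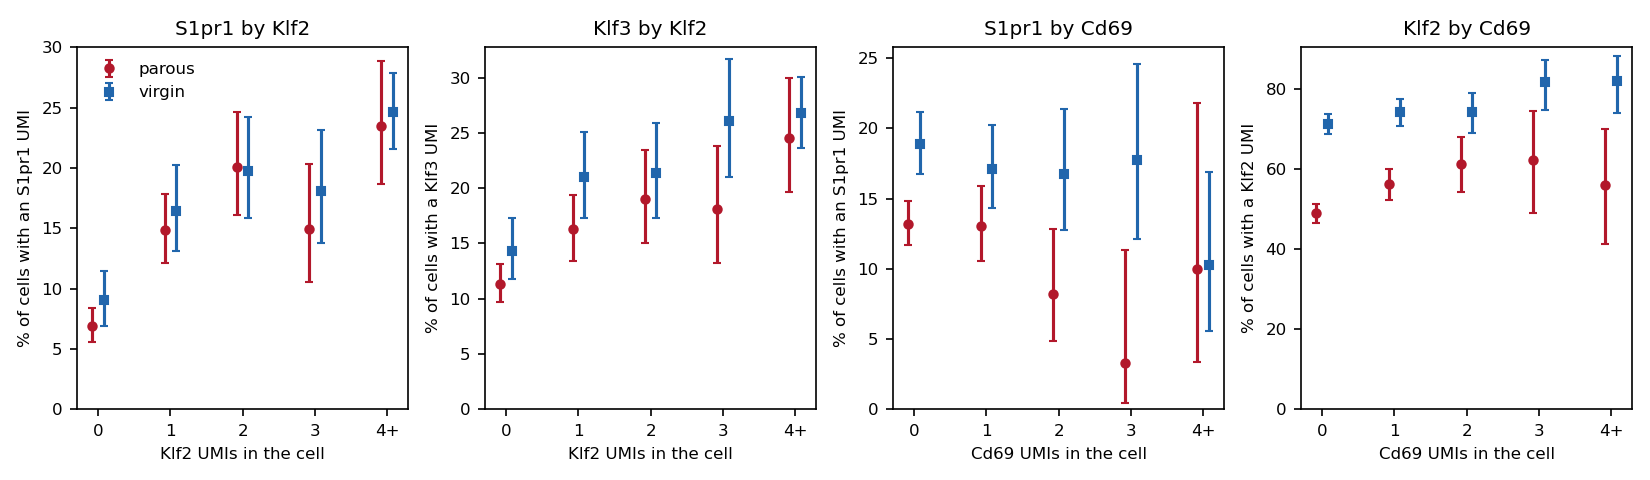
Percent of thinned cells with an S1pr1, Klf3 or Klf2 UMI against the number of Klf2 or Cd69 UMIs in the cell (4+ is 4 or more), parous as circles and virgin as squares, with exact 95% Clopper-Pearson intervals. S1pr1 goes from 6.88% to 23.5% of parous and from 9.01% to 24.6% of virgin cells between 0 and 4 or more Klf2 UMIs.

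Taken 3 at a time, Cd69, Klf2 and S1pr1 give 8 combinations of detected and not detected. The pattern of a classical resident cell, Cd69 with neither Klf2 nor S1pr1, was seen in 384 parous cells (13.4%, 12.2 to 14.7%) and 274 virgin cells (11.03%, 9.82 to 12.3%), whose intervals overlap. At 3000 UMIs per cell the shares of this pattern lay further apart, at 14.9% of parous and 9.76% of virgin cells. The pattern of a cell ready to exit, Klf2 and S1pr1 without Cd69, was found in 6.18% (5.32 to 7.12%) and 8.05% (7.01 to 9.19%), but at 3000 UMIs per cell the order turned, with 11.004% of parous and 10.4% of virgin cells. The combinations furthest apart at 1400 UMIs lay elsewhere. Cells with none of the 3 RNAs made up 31.4% of parous (901 cells) and 13.0% of virgin cells (322). Cells with Cd69 and Klf2 but no S1pr1 made up 16.2% and 31.0%, and cells with all 3 made up 3.04% and 7.20%. At 1400 UMIs per cell a gene not detected may still be expressed.

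By state, the resident pattern was seen in 19.0% of the parous cells and 28.9% of the virgin cells of cluster 2 (11 of 38 virgin cells) and in 16.2% and 29.8% of cluster 6. It was found in 21.4% of the parous cells of cluster 5 and in 3.33% and 3.05% of the naive or central memory-like cells. The pattern was not particular to the resident-like clusters. Of the interferon-responding-like cells, 26.3% of parous and 29.5% of virgin ones had it (38 and 61 cells). So did 16.9% and 23.2% of the Gzmk or exhausted-like, 10.1% and 24.7% of the cycling-like and 2.82% and 2.99% of the circulating effector-like cells. Cells with none of the 3 RNAs made up 46.7% of the parous cells of cluster 2 and 59.5% of those of cluster 5, against 8.94% and 4.07% of the parous and virgin naive-like cells. In parous cells with an Itgae UMI, the integrin chain CD103 of resident cells, S1pr1 was found in 4.32% and Klf2 in 29.9% (278 cells), against 13.4% and 54.2% of cells without, while Cd69 was found in 35.3% and 33.1%. In the 69 virgin cells with Itgae, Klf2 was found in 84.1% and S1pr1 in 24.6%. The states behind these classes were not the same: of the Itgae UMIs, 570 and 386 lay in clusters 5 and 2 of the parous library, while 318 of the virgin ones lay in the naive-like cluster 0 and 40 in cluster 2. For Itga1, the other residency integrin chain, cells with a UMI had lower shares of Klf2 and S1pr1 in both libraries, with Klf2 in 33.3% against 53.7% of parous and 51.7% against 74.4% of virgin cells, and S1pr1 in 3.37% against 13.5% and 10.3% against 17.9%, the last with intervals that overlap.

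**Figure D5:**
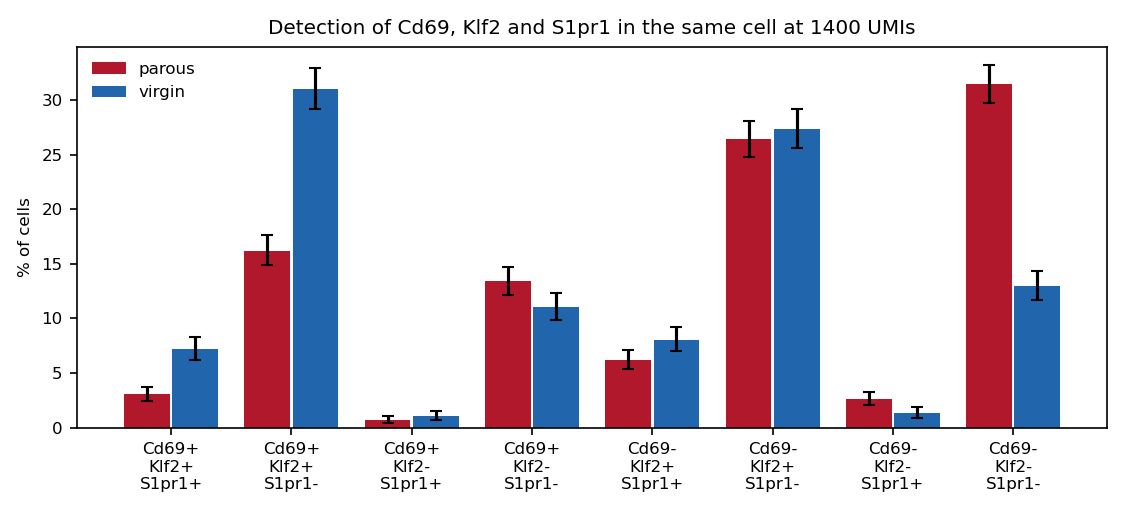
Percent of thinned cells in each of the 8 combinations of Cd69, Klf2 and S1pr1 (plus is at least 1 UMI), parous beside virgin, with exact 95% Clopper-Pearson intervals. Cells with none of the 3 make up 31.4% of parous and 13.0% of virgin cells, and the Cd69+ Klf2- S1pr1- bars are close (13.4% and 11.03%).

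The other genes of the pathway are given by list, counting those measured at 10 UMIs or more in either library and at least 1.5-fold apart, against backgrounds of 7.07% higher and 16.7% lower and the median of all these genes, -0.15. Of 5 S1P receptors 1 was higher and 1 lower, with a median log2 ratio of 0.02. The lower receptor was S1pr5, the exit receptor of effector and natural killer cells, at 5.12 CPM (68 UMIs) in parous and 24.7 CPM (492 UMIs) in virgin cells. Of its virgin UMIs 355 lay in the circulating effector-like cells, where its levels were 151 and 299 CPM. The higher receptor was S1pr3, with 13 UMIs in 13 parous cells and none in virgin cells, at least 6.50-fold higher against a floor of 3 counts. Of 13 genes of S1P synthesis, export and breakdown 1 was higher, none lower, and the median was -0.01. That gene was Plpp2, at 27 and 19 UMIs.

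Among 17 genes of S1P receptor signalling and desensitization, 2 were higher and 1 lower, with a median of -0.11. Rgs1, which blunts signalling of G protein-coupled receptors, stood at 522 and 269 CPM (0.95), but at equal state makeup its log2 ratio was -0.26, beside 0.67 in the same 10 states at their own makeup, which leave out cluster 5. Gna13, a G protein subunit, stood at 241 and 134 CPM (0.85) and was higher in the parous cells of all 10 states. Msn, which encodes the cytoskeletal linker moesin, stood at 331 and 507 CPM (-0.62). Of 13 KLF genes 2 were higher and 2 lower, Klf2 among the latter, and the median was 0.08. Klf9 stood at 30.8 and 19.3 CPM (0.68), Klf6 at 634 and 699 CPM (-0.14) and Klf13 at 163 and 142 CPM (0.19). The other 2 counted were rare, Klf8 (lower, 23 and 54 UMIs) and Klf5 (higher, 10 and 2 UMIs). At equal state makeup 2 of the 13 KLF genes were higher and 1 lower. The median was then -0.20, beside -0.11 in the same states at their own makeup.

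Of 22 regulators of Klf2 and S1pr1, none was higher and 3 were lower, with a median of -0.18. Lef1 (-0.92) and Tcf7 (-0.72), transcription factors of naive and stem-like T cells, were 2 of the 3, and the other, Mef2c, had 4 and 11 UMIs. At equal state makeup Lef1 stood at -0.26 and Tcf7 at -0.38. Foxo1, which activates Klf2, stood at 134 and 110 CPM (0.29). Among 6 genes linked to Klf2 or to lymph node homing, which include S1pr1, none was higher and 3 were lower, among them Cd55 (-0.84) and the chemokine receptor gene Ccr7 (-0.62). At equal makeup Cd55 stood at -0.42 and Ccr7 at 0.17. Of 14 other receptors of egress and circulation none was higher and 4 were lower, with a median of -0.43: S1pr5, Ccr7, the chemokine receptor gene Cxcr4 (-0.70) and Cx3cr1 (-1.50), a marker of circulating effector cells. At equal makeup these stood at -1.06, 0.17, -0.85 and -0.48, and with median-of-ratios scaling 2 of the 14 were counted as lower. Over the whole list at equal makeup, 4 of the 14 were lower, not all of them the same genes. None was higher and the median was -0.46. In the same states at their own makeup, 2 of the 14 were lower. The 3 residency integrin genes were all higher (Itgae 2.06, Itga1 1.27 and Cdh1 3.66). At equal makeup they stood at -0.03, -0.37 and 1.09, and 1 of the 3 was counted as higher. In the same 10 states at their own makeup 2 of the 3 were. These states leave out cluster 5, which held 570 Itgae and 434 Itga1 UMIs in parous cells. The virgin level of cluster 2 that enters them rests on 38 cells.

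Cd69 lies in the natural killer gene complex, and its neighbours did not share a direction. Of 10 measured genes there, Cd69 included, 3 were higher and 3 lower, with a median of -0.16. Klrb1c stood at 30.5 and 8.39 CPM and Klrb1a at 7.23 and 0.502 CPM, both higher in parous cells, and Klrb1b had 28 UMIs in 18 parous cells and none in virgin cells (at least 14.0-fold). At equal state makeup Klrb1c stood at 0.046 and Klrb1a at 0.12, and in the same states at their own makeup at 0.39 and 0.43. Over the 10 genes at equal makeup, Cd69 included, 1 was higher and 3 lower, with a median of -0.41. Klrb1f was lower (5.88 and 19.5 CPM), as was Clec2g on 1 and 11 UMIs. The Klrb1 genes are near copies of each other, so reads could be divided among them wrongly.

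Cd69 is induced by T cell receptor signalling, by type I interferon and, like other immediate early genes, by tissue dissociation, so these lists were set beside it. Of 15 receptor-driven early genes 3 were higher (Nr4a2 0.998, Nr4a3 0.75 and Tnfrsf9 1.19) and 2 lower (Myc -1.39 and Il2ra -0.78), with a median of -0.03. At equal makeup Nr4a3 (0.54), Tnfrsf9 (0.43) and Il2ra (-0.074) were no longer 1.5-fold apart, while Nr4a2 (0.62) and Myc (-1.499) were. Nr4a2 was higher in the parous cells of all 10 states. Of 29 interferon genes 3 were higher and 11 lower, with a median of -0.45, and 5 were lower with median-of-ratios scaling. Among the lower ones were the interferon-inducible genes Ifi214 (-0.90), Ifi206 (-0.89) and Ifi209 (-0.86), at -0.51, -0.66 and -0.57 at equal makeup, where 2 of the 29 were lower, 4 higher and the median was -0.098. Isg20, an interferon-induced exonuclease gene, stood at 61.0 and 19.8 CPM (1.62), and Rsad2 at 9.49 and 5.37 CPM (0.82). Of 24 immediate early and dissociation-linked genes 4 were higher and 2 lower, with a median of 0.03, and their summed levels were close, at 12794 and 12594 CPM. The 2 lower genes were Fos and Jun (-0.66), and among the higher ones Fosl2 stood at 172 and 55.5 CPM (1.63) and was higher in all 10 states, followed by Atf3 (1.01), Btg2 (0.74) and Rgs2 (0.61). At equal makeup 2 of these 24 genes were higher and 4 lower, with a median of 0.005. The part of dissociation, receptor signalling or interferon in the Cd69 difference was not tested.

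Fos, an immediate early transcription factor gene, was also the gene whose level followed Cd69 most closely. Likeness was the Pearson correlation of log2(CPM + 1) over 18 cluster-by-library sums with at least 50 cells, for 8149 genes, given as a description because the points share libraries and depth. For Fos and Cd69 it was 0.93, followed by Btla (0.83), Irf2bp2 (0.81), Kat8 (0.81) and Mfn2 (0.81). Fos stood at 660.3 CPM in parous and 1211 CPM in virgin cells, a log2 ratio of -0.88, and was lower in the parous cells of all 10 states, from -1.17 to -0.49, each interval below 0. Per cell, Cd69 was found in 41.4% of parous cells with a Fos UMI and 26.0% of the others, and in 57.2% and 37.1% of virgin cells. The observed number with both was 1.24 and 1.14 times that expected, and 1.22 and 1.11 times within states. For the other 4 genes these ratios with Fos lay between 0.88 and 1.08.

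For Klf2 the most alike genes were Acp5 (0.87), Il17ra (0.86), Arl5c (0.85), Pced1b (0.85) and Tmem71 (0.84), and Klf3 stood just below these at 0.83. For Klf3 they were Scml4 (0.86), Acp5 (0.84), Klf2 (0.83) and Frat2 (0.78), so Klf2 was the third of 8149 genes. S1pr1 was most like Atp1b3 (0.90), Cmah (0.87), Arl5c (0.86), P4ha1 (0.84) and Stk38 (0.84), and stood at 0.79 with Klf2. S1pr4 was most like Rap1b (0.85), Iqgap2 (0.82), Atg4d (0.82), Gna15 (0.82) and Cdc42se1 (0.82), and stood at 0.24 with S1pr1. Cd69 was unlike the other 4 genes by this measure, at 0.17 with Klf2, 0.16 with Klf3, -0.17 with S1pr1 and -0.45 with S1pr4.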

How the data were processed

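The authors deposited whole-number UMI counts, 1 matrix per library, produced by Cell Ranger 7.0.0 per the file headers. The submitters' processing notes give mm10 as the build and list R 4.4.2 and Seurat with no stated role. How barcodes were called as cells was not given in the sources used here. The cell filter (500 genes or more, 1000 UMIs or more, mitochondrial share below 10%) left out 1908 parous and 15 virgin barcodes. Scrublet marked 2 and 11 cells, under 0.5% of each library, and was taken not to have worked, so doublets were not removed. Cells were clustered with scanpy 1.11.5 and leidenalg 0.10.2 (2000 variable genes, 30 components, 15 neighbours, resolution 0.8) after virgin UMIs had been thinned to 58.7%. To be named, a cluster needed 3 or more markers of a type, each 2-fold or more above other cells and seen in 10% or more of its own, and 1 or more among its 10 leading genes. A cluster also stayed unnamed where another type had more markers among those 10 genes.

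CPM was the summed UMIs of a gene over all UMIs of the same cells (the CD8 T cells of a library, or those of a state). Ratios were taken after adding 0.5 to both counts, and intervals were exact, at 95%. The computation was tested on simulated counts for all CD8 T cells (13056 genes, 200 changed), and genes set at 2-fold and 4-fold came back with median log2 ratios of 0.99 and 2.00. Gene positions came from GENCODE M21. Named genes were the 5 members, list genes at least 1.5-fold apart with at least 30 UMIs in 1 library (up to 6 per list), 9 genes fixed by name, and the 5 genes most like each member. Where a list count was 5 or fewer, the genes counted were named too, after their values were seen. A few genes that these rules pick are not reported here. The members and lists were chosen with earlier results of these data known. Software versions were Python 3.11.15, pandas 2.3.3, scipy 1.17.1 and numpy 2.4.6. Alternatives covered scaling, cell weighting, cell filter, depth, seed, clustering and UMI minimums.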

Additional observations from a re-analysis of the deposited data

Results flagged for a closer look

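Klf2 went opposite ways in 2 states, at a log2 parous over virgin ratio of 0.94 in the cycling-like cluster 8 (423 parous and 1078 virgin UMIs) and -0.98 in cluster 3 (1769 and 3473 UMIs). Klf3 stood at 0.75 in the resident-like cluster 6 (73 and 60 UMIs) and -0.63 in cluster 3 (265 and 407 UMIs). S1pr1 stood at 0.63 in cluster 8 (40 and 128 UMIs) and -0.65 in the resident-like cluster 2 (225 and 30 UMIs). In cluster 2 the share of thinned cells with S1pr1 went the other way, at 7.70% of parous and 2.63% of virgin cells (1 of 38). In each pair both intervals lay on their own side of 0, with 1 library per group, and the difference between the states was not tested.

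All 5 genes also gave signal in the 1908 parous barcodes that the cell filter left out, which had a median of 600 UMIs. Their levels were 334 CPM for Cd69, 732 CPM for Klf2, 161 CPM for Klf3, 99.3 CPM for S1pr1 and 104 CPM for S1pr4, each far above the 2.46 CPM that 3 counts would give there.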

How the results depend on the processing

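Among the alternatives, 3 directions turned: the S1pr4 shares at 1000 UMIs, S1pr1 at equal makeup with finer clusters, and the Cd69- Klf2+ S1pr1+ pattern at 3000 UMIs. Of the values by state, only the naive or central memory-like cells were recomputed (20 alternatives, nearly the same cells), and these stayed within their counting intervals. With median-of-ratios scaling the log2 ratios by library were -0.73 for Cd69, -0.92 for Klf2, -0.30 for Klf3, -0.31 for S1pr1 and 0.23 for S1pr4. With each cell weighing equally, Klf2 stood at -1.16, S1pr1 at -0.59 and S1pr4 at 0.00081. Over clusters with at least 2% of each library, Cd69 stood at -0.77, Klf2 at -0.76, Klf3 at -0.29 and S1pr1 at -0.18. The log2 ratio of shares of cells with a UMI was -0.59 for Cd69, -0.51 for Klf2 and Klf3 and 0.17 for S1pr4 at 1400 UMIs. At 1000 UMIs it was -0.72 for Cd69, -0.57 for Klf2 and -0.047 for S1pr4, and at 3000 UMIs -0.42 for Cd69 and -0.32 for Klf2. With 2 UMIs needed it was -1.11 for Cd69, -0.89 for Klf2, -0.80 for Klf3 and 0.41 for S1pr4. At equal makeup, the finer resolution gave -0.57 for Cd69, -0.56 for Klf2, -0.077 for Klf3 and 0.024 for S1pr1, and states with at least 50 cells of each library, an alternative chosen after seeing the data, gave -0.86 for Cd69. At 3000 UMIs, Cd69 and Klf2 were found together in 1.028 times the expected number of parous cells, the Cd69+ Klf2- S1pr1- pattern in 14.9% and 9.76% of the parous and virgin cells, and the Cd69- Klf2+ S1pr1+ pattern in 11.004% and 10.4%. Fewer cells reach 3000 UMIs. For these moves the cause was not tested.

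Of 72 alternative counts over the lists, 52 stayed within 1.5 times. Under median-of-ratios scaling the interferon genes counted as lower went from 11 to 5, the circulation receptors from 4 to 2, and the signalling genes counted as higher from 2 to 5. Among genes with at least 500 UMIs, added after seeing the data, no S1P receptor was counted as higher. No paired analysis was possible because each group is 1 library with no replicate number. Depth limits the state values of the rarer genes, with 11 virgin UMIs of S1pr1 in cluster 6, 7 parous UMIs in cluster 10, and 8 virgin UMIs of S1pr1 and 6 of S1pr4 in cluster 9.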
